A study of Mus musculus with 12 samples.

Results

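Collagens are secreted proteins whose chains wind around each other into a rope-like helix, and each chain is encoded by a gene of its own. Fibrillar collagens form the banded fibrils that give tissue tensile strength, basement membrane collagens form sheets around vessels and under epithelia, and collagen VI forms beaded filaments in the matrix near cells. In the uninjured cord collagen is largely limited to the meninges and the vessel walls, whereas after injury fibroblasts deposit it in the scar.

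The genes described here are the collagen chain genes, taken as every gene whose symbol is COL, a type number, A and a chain number. Membership rests on the name alone, but the set was chosen with earlier results of these data known. The rule found 29 genes among the 13957 symbols in the deposited table, 27 with a row above the lesion and all 29 with a row below it. They comprise 10 fibrillar chains, 5 basement membrane chains, 3 collagen VI chains and 11 others. Apart from COL26A1, these others are chains of fibril-associated, network, anchoring and membrane-spanning collagens. RefSeq lists 44 mouse genes that follow the rule, and 15 of them have no row at either site. These are the cartilage chain COL2A1, the collagen IX chain COL9A1, and the basement membrane chains COL4A3, COL4A4 and COL4A6. The others are the collagen VI chains COL6A4, COL6A5 and COL6A6, and COL10A1, COL13A1, COL17A1, COL19A1, COL20A1, COL22A1 and COL28A1. The table is limited at the low end by the larger of the values of a row: in 22268 rows with a recovered FPKM, the larger one was under 1.2 in 20 rows. COL14A1, COL6A3, COL7A1 and COL8A2 therefore have a row below the lesion through their synj1+/+ value alone, and a gene of that kind had to be lower in synj1+/- to be listed. For COL8A1, which also has no row above, this cannot be read, because its FPKM was not recovered.

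The RNA came from spinal cord of male mice, 4 months old, that carry the human ApoE4 variant and received a contusion at thoracic vertebra 9, and it was collected 14 days after the injury. The 12 libraries fall into 4 groups of 3, one for each genotype, synj1+/+ or synj1+/-, on each side of the lesion. The labels call synj1+/+ homozygous and synj1+/- heterozygous for synaptojanin 1, a phosphatase that removes phosphates from the membrane lipid PIP2, and ApoE4 and the injury are common to all 4 groups. The study's methods count as many mice per genotype as there are libraries per group, so the segments above and below would share mice, but the labels tie no library to a mouse. Uninjured and ApoE3 cord were not analysed here.

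The table gives 1 combined value for the 3 libraries of a group. No spread between libraries can be computed from these values, and the p-values of the authors' own comparison were not used, so no difference was tested, no error is given, and whether all 3 libraries of a group share a level cannot be read. Genes were counted as lower or higher where the listed values of both genotypes differed by 1.5-fold or more, and the counts are read beside the percentage of all genes counted the same way. The segments are bulk tissue, in which fewer cells of a type and less RNA per cell cannot be told apart. Levels are FPKM (fragments per kilobase of transcript, scaled to the number of fragments mapped), recovered from the listed values as described under the processing. Log2 differences are on the scale of the listed values, which hold an added 1, and give synj1+/- over synj1+/+. The sites were normalized separately, so a level above and a level below are set side by side with that limit.

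SYNJ1 itself, the gene that the genotype alters, ran against the labels. Above the lesion its listed value was 1905 for the label synj1+/+ and 2404 for the label synj1+/-, a log2 difference of 0.34. Below the lesion the listed values were 1847 and 2593, a log2 difference of 0.49. Every direction below is that of the libraries as labelled. The comparison of the genotypes asks which transcripts differ in injured cord between the groups so labelled.

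Below the lesion, collagen chain genes were lower in the group labelled synj1+/-. Of the 29 chains, 24 were lower by any amount, beside 47.2% of all genes, and 18 were lower by 1.5-fold or more, which is 62.1% of the chains beside 4.38% of all 12338 genes with a row there. Only COL24A1 was higher past that limit, beside 1.16% of all genes. Over the 27 chains with a row at both sites, 16 were lower by that much (59.3%). Without every gene listed below through synj1+/+ alone and without COL8A1, 13 of 24 chains were (54.2%), beside 3.37% of all genes without those listed that way. The median log2 difference was -0.96 over the chains and 0.01 over all genes. All 5 basement membrane chains and all 3 collagen VI chains were among the 18, with 5 of 10 fibrillar and 5 of 11 other chains.

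Above the lesion few chains differed between the genotypes past the limit. Of 27 chains, 17 were lower in synj1+/- by any amount, beside 51.0% of all genes. Past the limit, COL3A1 alone was lower by 1.5-fold or more and COL24A1 alone was higher, each 3.70% of the chains. Of all 13647 genes, 1.94% were lower and 0.791% were higher past the same limit. COL3A1, at an FPKM of 4.26 and 0.728, has a row above through synj1+/+ alone and had to be lower to be listed. The same holds for COL6A3, at 1.40 and 1.17, and for COL8A2, at 1.22 and 0.957, both among the 17. The share of all genes above the lesion was not computed without genes of that kind. The median log2 difference was -0.08 over the chains and 0.00 over all genes.

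**Figure D1:**
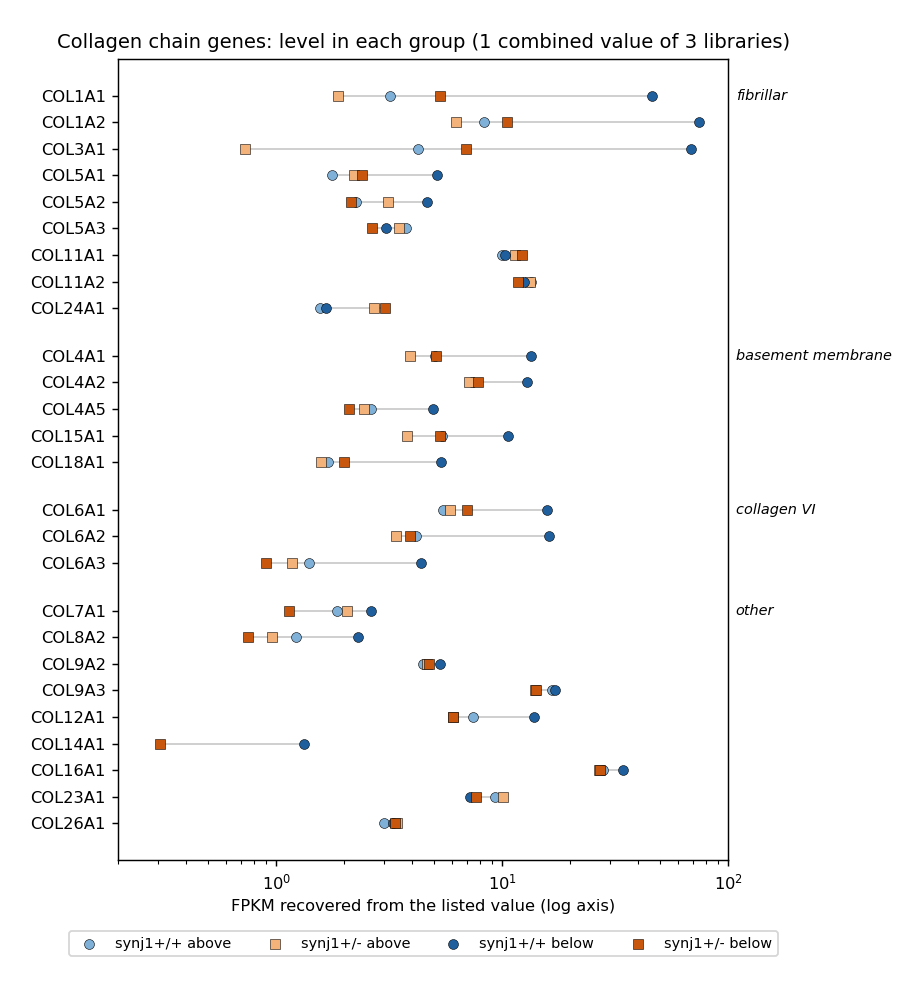
FPKM (log axis) of the 26 collagen chains with a recovered FPKM, arranged by class; each point is the combined value of 1 group of 3 libraries, circles for synj1+/+ and squares for synj1+/-, pale for above and dark for below the lesion. The dark circles of COL1A1, COL1A2 and COL3A1 lie at 46.2, 74.7 and 68.9, to the right of every other point in their rows, while the points of COL11A1, COL11A2 and COL26A1 lie close together.

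Collagens I and III have the chains with the widest contrasts, and the collagen IV pair shares a region of start sites. The 300 bases around the starts of 4 of these genes are shown so that the sequences can be compared, with COL24A1, the only chain that was higher in synj1+/- by 1.5-fold, for contrast. The windows run from 250 bases before to 50 bases after the annotated start, 5′ to 3′ on the strand of the gene, and come from RefSeq on GRCm38.p6. Capitals mark matches on either strand to the CCAAT box (CCAAT), the GC box (GGGCGG) and the TATA box (TATAAA), which do not overlap one another. COL1A2 lies at chr6:4505368-4505667 on the plus strand, COL3A1 at chr1:45311288-45311587 on the plus strand, COL4A1 at chr8:11312777-11313076 on the minus strand, COL4A2 at chr8:11312555-11312854 on the plus strand and COL24A1 at chr3:145292222-145292521 on the plus strand.
COL1A2: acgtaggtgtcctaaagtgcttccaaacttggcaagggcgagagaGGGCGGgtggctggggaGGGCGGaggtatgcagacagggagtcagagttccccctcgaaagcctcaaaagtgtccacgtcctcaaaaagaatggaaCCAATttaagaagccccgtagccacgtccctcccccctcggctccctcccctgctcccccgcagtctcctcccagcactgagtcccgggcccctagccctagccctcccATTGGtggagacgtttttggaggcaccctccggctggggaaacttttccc
COL3A1: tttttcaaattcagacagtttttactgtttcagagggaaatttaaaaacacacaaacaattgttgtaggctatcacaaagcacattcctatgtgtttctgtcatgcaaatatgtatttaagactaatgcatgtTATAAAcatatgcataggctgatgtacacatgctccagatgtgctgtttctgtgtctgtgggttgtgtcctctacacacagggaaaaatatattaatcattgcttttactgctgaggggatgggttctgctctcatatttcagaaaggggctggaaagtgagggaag
COL4A1: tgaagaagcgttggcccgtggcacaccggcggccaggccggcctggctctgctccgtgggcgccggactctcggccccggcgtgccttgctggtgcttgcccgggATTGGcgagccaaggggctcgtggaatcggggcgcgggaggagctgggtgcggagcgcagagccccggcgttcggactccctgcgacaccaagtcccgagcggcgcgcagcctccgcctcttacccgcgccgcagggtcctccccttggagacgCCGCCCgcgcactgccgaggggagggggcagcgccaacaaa
COL4A2: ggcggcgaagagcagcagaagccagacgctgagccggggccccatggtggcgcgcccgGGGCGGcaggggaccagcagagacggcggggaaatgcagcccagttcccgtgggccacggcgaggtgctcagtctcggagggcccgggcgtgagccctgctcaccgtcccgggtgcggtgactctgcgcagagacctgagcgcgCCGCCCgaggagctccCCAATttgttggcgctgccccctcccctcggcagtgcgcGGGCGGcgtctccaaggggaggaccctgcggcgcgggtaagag
COL24A1: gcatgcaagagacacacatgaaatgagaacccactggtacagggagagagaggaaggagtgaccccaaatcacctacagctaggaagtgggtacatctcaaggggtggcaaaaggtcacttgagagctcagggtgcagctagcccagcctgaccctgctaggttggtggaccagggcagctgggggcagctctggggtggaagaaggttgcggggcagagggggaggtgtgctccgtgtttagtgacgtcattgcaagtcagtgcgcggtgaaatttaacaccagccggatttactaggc

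COL4A1 and COL4A2 are transcribed away from each other, and their windows share 78 bases. COL1A2 held 2 CCAAT boxes and 2 GC boxes, COL4A1 held 1 of each, and COL4A2 held 1 CCAAT box and 3 GC boxes. COL3A1 held 1 TATA box and neither of the other motifs, and COL24A1 held none of the 3. A window was found for 23 of the 29 chains, all but COL1A1, COL5A2, COL9A3, COL12A1, COL14A1 and COL26A1. A CCAAT box was in 10 of the 23 (43.5%) and in 37.4% of 32851 windows of all genes, a GC box in 18 (78.3%) and in 35.7%, and a TATA box in 2 (8.70%) and in 13.6%. The chains count 1 window per gene, while the 32851 windows were reduced neither to 1 per gene nor to genes with a row. The shares are thus over unlike sets. The motifs are matches of letters and nothing was measured at them.

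The fibrillar collagens I and III, the main collagens of fibrotic scar, differed most. COL1A1, the alpha 1 chain of collagen I, has its gene at chr11:94936224-94953042. Above the lesion its FPKM was 3.20 in synj1+/+ and 1.88 in synj1+/-, and below it these were 46.2 and 5.29. COL1A2, its partner chain, is encoded at chr6:4505618-4541543. The FPKM of COL1A2 was 8.32 and 6.26 above, and 74.7 and 10.6 below, in the same order of genotypes. COL3A1, the chain of collagen III, which forms fine fibres together with collagen I, is encoded at chr1:45311538-45349706. Its FPKM was 4.26 and 0.728 above, and 68.9 and 6.91 below. For all 3 genes synj1+/+ below was the highest of the 4 groups and synj1+/- above was the lowest. By FPKM, synj1+/- was 8.72-fold lower than synj1+/+ below the lesion for COL1A1, 7.08-fold lower for COL1A2 and 9.97-fold lower for COL3A1. The log2 differences were -2.91, -2.71 and -3.14 below, and -0.54, -0.36 and -1.60 above. COL3A1 was thus the one chain of the 3 with a difference past 1.5-fold on the listed scale at both sites, 5.84-fold by FPKM above the lesion, where its synj1+/- level was under 1.

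Collagen V lies inside collagen I fibrils and limits their width. COL5A1 had an FPKM of 1.76 in synj1+/+ and 2.21 in synj1+/- above, and 5.18 and 2.41 below. COL5A2 stood at an FPKM of 2.26 and 3.14 above, and 4.63 and 2.14 below. Both genes were higher in synj1+/- above the lesion, with log2 differences of 0.26 and 0.35, and lower below it, with log2 differences of -0.96 and -0.84. COL5A3, a further collagen V chain, did not share this pattern: its FPKM was 3.76 and 3.51 above, and 3.08 and 2.66 below. COL3A1 and COL5A2 are neighbours on chromosome 1, COL5A2 at chr1:45374331-45503282, and their log2 differences below the lesion were -3.14 and -0.84.

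Of the remaining fibrillar chains, COL11A1 and COL11A2 were level across the groups, COL24A1 was higher in synj1+/- and COL27A1 was lower within 1.5-fold. COL11A1, a chain of the collagen XI that is best known from cartilage, had an FPKM of 9.99 and 11.4 above, and 10.3 and 12.3 below. COL11A2, a second collagen XI chain, had an FPKM of 13.4 and 13.2 above, and 12.5 and 11.8 below. The highest group was 1.23 times the lowest for COL11A1 and 1.14 times for COL11A2. COL24A1, a minor fibrillar chain, was higher in synj1+/- at both sites: its FPKM was 1.56 and 2.72 above, and 1.66 and 3.03 below, with log2 differences of 0.76 and 0.82. On the scale of FPKM plus 1, its log2 differences were 0.54 and 0.60, the first within 1.5-fold. COL27A1, another minor fibrillar chain, had listed values of 92.96 and 72.81 above, and 112.2 and 79.79 below, with log2 differences of -0.35 and -0.49. FPKM could not be recovered for COL27A1, and its listed values are not on the scale of the other chains.

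**Figure D2:**
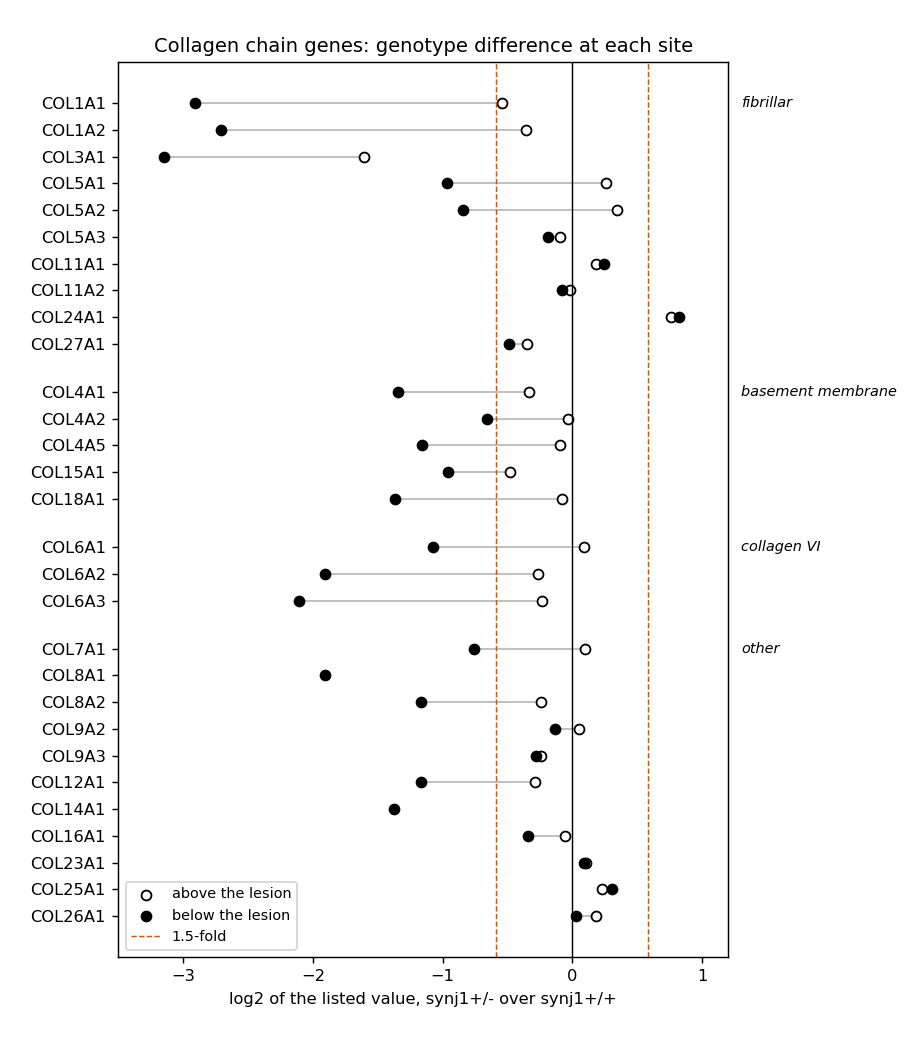
Log2 difference of the listed value, synj1+/- over synj1+/+, for the 29 collagen chains, with open circles above and filled circles below the lesion and dashed lines at 1.5-fold; no replicate error could be drawn. The filled circles of COL1A1, COL1A2 and COL3A1 lie between -2.71 and -3.14, whereas those of COL11A1, COL24A1, COL23A1, COL25A1 and COL26A1 lie to the right of 0.

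Of the basement membrane chains, COL4A1 and COL4A2 make the collagen IV that is found in basement membranes throughout the body. COL4A1 (chr8:11198423-11312889) had an FPKM of 5.04 in synj1+/+ and 3.92 in synj1+/- above, and 13.4 and 5.09 below. COL4A2 (chr8:11312805-11449287) had an FPKM of 7.33 and 7.14 above, and 12.9 and 7.84 below. The pair that shares a promoter region thus differed unequally below the lesion, by log2 differences of -1.34 and -0.66. COL4A5, an X-linked chain that assembles with the unlisted COL4A3, COL4A4 or COL4A6, had an FPKM of 2.62 and 2.44 above, and 4.94 and 2.104 below. COL15A1 and COL18A1 encode core proteins of the basement membrane zone around vessels, and a fragment of the latter is endostatin. COL15A1 was at 5.39 and 3.78 FPKM above, and at 10.6 and 5.29 below. COL18A1 was at 1.69 and 1.59 FPKM above, and at 5.38 and 2.002 below. Below the lesion all 5 chains were lower in synj1+/-, by log2 differences from -1.36 to -0.66. Above it all 5 were also lower, but none by 1.5-fold, with log2 differences from -0.48 to -0.03.

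The 3 collagen VI chains assemble together, and all were lower in synj1+/- below the lesion. COL6A1 had an FPKM of 5.46 and 5.86 above, and 15.8 and 7.00 below. COL6A2 had an FPKM of 4.18 and 3.41 above, and 16.1 and 3.92 below. COL6A3, the longest chain of the filament, had an FPKM of 1.40 and 1.17 above, and 4.35 and 0.902 below. The log2 differences below the lesion were -1.07, -1.90 and -2.11. Above the lesion they were 0.09, -0.26 and -0.23, so none reached 1.5-fold. COL6A1 and COL6A2 lie on the same stretch of chromosome 10, at chr10:76708792-76726044 and chr10:76595756-76623630.

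Among the other chains, those of network, anchoring and some fibril-associated collagens were lower in synj1+/- below the lesion. COL8A1 and COL8A2 form the short-chain collagen VIII found in vessel walls and the cornea. COL8A2 had an FPKM of 1.22 and 0.957 above, and 2.30 and 0.751 below, and COL8A1 had listed values of 8.743 and 2.338 below. COL12A1 and COL14A1 bind to the surface of collagen I fibrils. COL12A1 was at 7.44 and 6.06 FPKM above, and at 13.9 and 6.03 below, while COL14A1 was at 1.32 and 0.306 below. COL7A1, the chain of anchoring fibrils, was at 1.86 and 2.06 FPKM above, and at 2.62 and 1.14 below. The log2 differences below were -1.90 for COL8A1, -1.16 for COL8A2, -1.17 for COL12A1, -1.37 for COL14A1 and -0.76 for COL7A1.

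The other 6 chains of this class were within 1.5-fold at both sites. COL16A1, a fibril-associated collagen, had the highest FPKM of the chains, by the RefSeq transcript numbers, in 3 of the groups, all but synj1+/+ below. It was at 27.8 and 26.8 above, and at 34.4 and 27.1 below. COL9A3, a collagen IX chain, was at 16.7 and 14.0 FPKM above, and at 17.2 and 14.1 below, and its partner COL9A2 was at 4.47 and 4.66 above, and at 5.29 and 4.74 below. COL23A1 and COL25A1 span the cell membrane, and COL25A1 is known from neurons. COL23A1 was at 9.35 and 10.1 FPKM above, and at 7.19 and 7.70 below. COL25A1 had listed values of 134.2 and 157.1 above, and 115.9 and 143.4 below, with log2 differences of 0.23 and 0.31. COL26A1 was at 2.998 and 3.42 FPKM above, and at 3.27 and 3.34 below. With COL11A1 and COL24A1, the chains COL23A1, COL25A1 and COL26A1 are the 5 that were higher in synj1+/- at both sites.

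Summed over the 25 chains with a recovered FPKM at both sites, collagen FPKM above the lesion was 153.4 in synj1+/+ and 142.4 in synj1+/-, and 396.7 and 156.2 caudal to it. Of the 4 sums, 3 are thus close, and synj1+/+ below stands apart. COL1A1, COL1A2 and COL3A1 made up 10.3% and 6.23% of the sum above, and 47.8% and 14.6% below. Without these 3, the sum over the other 22 chains was 137.7 and 133.6 above, and 206.9 and 133.4 below. By class, the sum below the lesion was 3.98 times higher in synj1+/+ for the fibrillar chains, 2.12 times for basement membrane, 3.06 times for collagen VI and 1.33 times for the others. Above the lesion the same ratios were between 1.05 and 1.17.

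**Figure D3:**
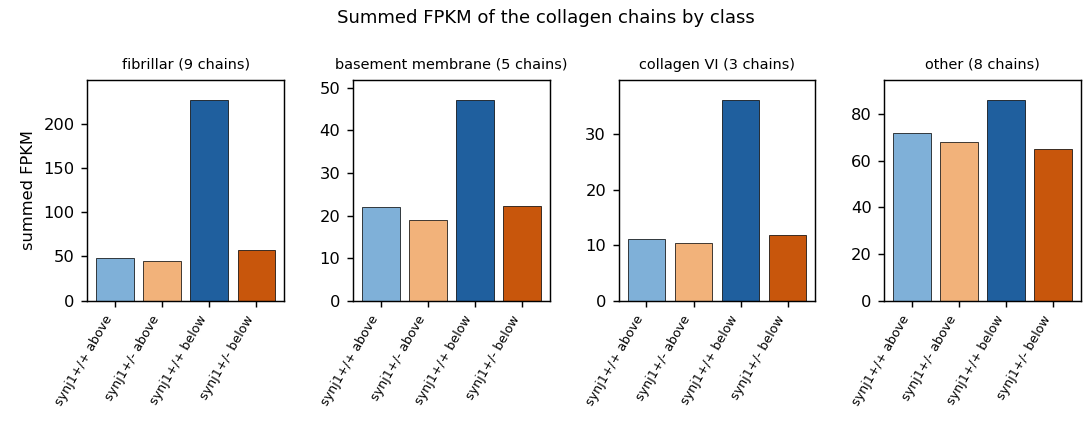
Summed FPKM of the chains listed at both sites with a recovered FPKM, by class, 1 bar for each group and each panel with its own axis from 0. Synj1+/+ below is the tallest bar in each panel, 227.1 for the fibrillar chains beside 48.50, 45.06 and 57.06 in the other groups.

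The comparison of the sites asks whether the genotype difference itself was not the same above and below. For the 27 chains listed at both sites, the log2 difference below minus that above was under 0 for 24, beside 46.1% of all genes, with a median of -0.86 beside 0.02 over all 12025 genes listed at both sites. It was under 0 by 1.5-fold or more for 15 of the 27 (55.6%), beside 3.38% of all genes. The 15 include COL6A3, COL7A1 and COL8A2, which have a row below through synj1+/+ alone. These chains had to be lower in synj1+/- below to be listed there. Neither this count nor the share of all genes was computed without genes of that kind. The widest gaps were those of COL1A1 at -2.36 and COL1A2 at -2.35, followed by COL6A3 at -1.88, COL6A2 at -1.64 and COL3A1 at -1.54. By FPKM without the added 1, the gap of COL3A1 was -0.77, narrower than those of COL5A2 at -1.59 and COL5A1 at -1.43. COL3A1 thus had the lowest log2 difference at each site, but not the widest gap between the sites. The exceptions over 0 were COL11A1 at 0.06, COL24A1 at 0.06 and COL25A1 at 0.08.

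The same values can be read within each genotype, across the separately normalized sites. In synj1+/+ cord, 15 of 27 chains had a listed value at least 1.5-fold higher below than above, beside 3.25% of all genes, and the median log2 of below over above was 0.74. In synj1+/- cord, COL1A1, COL1A2 and COL3A1 were the 3 chains past the limit, beside 1.44% of all genes, and the median was 0.02. By FPKM, COL3A1 was 16.2 times higher below than above in synj1+/+ and 9.49 times in synj1+/-. For COL1A1 the same ratios were 14.4 and 2.81, and for COL1A2 they were 8.98 and 1.69. Synj1+/+ below was the highest of the 4 groups for 20 of the 27 chains, beside 28.4% of all genes, among them all 5 basement membrane and all 3 collagen VI chains. COL6A3, COL7A1 and COL8A2 are among the 20 but have a row below through synj1+/+ alone. Of these, COL6A3 and COL8A2 are also among the 15 that were higher below in synj1+/+. The counts within a genotype and their shares of all genes were not computed without genes of that kind. These values share groups with the genotype comparisons and are not separate evidence.

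**Figure D4:**
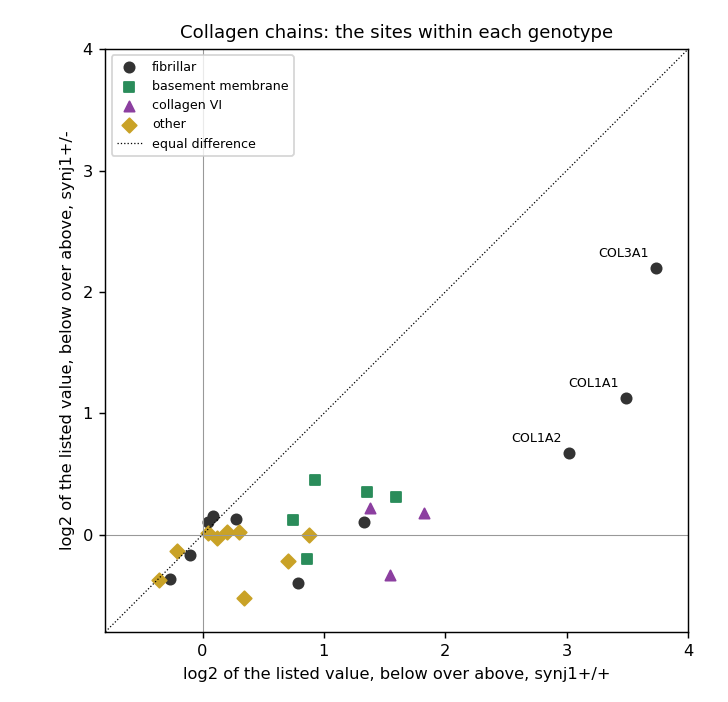
Log2 of the listed value below over above the lesion for the 27 chains listed at both sites, synj1+/+ on the x axis and synj1+/- on the y axis, marked by class, with a dotted line where both are equal. COL1A1, COL1A2 and COL3A1 lie to the right at 3.49, 3.02 and 3.73 on the x axis, and the basement membrane and collagen VI chains lie between -0.33 and 0.45 on the y axis.

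Chains that assemble with each other did not keep one ratio across the groups. The FPKM of COL1A1 over that of COL1A2 was 0.385 in synj1+/+ and 0.301 in synj1+/- above, and 0.618 and 0.502 below. COL4A1 over COL4A2 was 0.688 and 0.549 above, and 1.04 and 0.649 below. COL6A1 over COL6A2 was 1.31 and 1.72 above, and 0.983 and 1.78 below. COL6A3 over COL6A1 was 0.256 and 0.1997 above, and 0.276 and 0.129 below. COL5A1 over COL5A2 was nearly the same in both genotypes below, 1.12 and 1.13, after 0.780 and 0.703 above. The ratio of the collagen I chains and that of the collagen IV chains were highest in the group where both chains were highest. The size of the collagen VI ratios depends on the transcript number used for COL6A2 and COL6A3, and the order of the groups does not. With the smaller number that also fits COL6A2, its FPKM exceeds that of COL6A1 in each group.

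The enzymes that fold collagen were counted as a list. The list for folding and modification holds 22 symbols, some of which are older names of genes also in it. Of its genes, 15 had a row below the lesion and 4 were lower by 1.5-fold or more in synj1+/-. Of 17 with a row above none was. These counts and those of the lists that follow stand beside 4.38% of all genes below the lesion and 1.94% above. The 4 include SERPINH1, the collagen chaperone HSP47, with an FPKM of 67.5 in synj1+/+ and 21.1 in synj1+/- below. The rest are CRTAP, FKBP10 and PLOD2, which act on prolines and lysines of the chains, with log2 differences of -0.80, -0.86 and -0.71. Of the genes for trimming and crosslinking, 3 of 9 were lower below and 0 of 8 above. They are the lysyl oxidases LOX and LOXL1, with log2 differences of -1.94 and -1.22, and PCOLCE, which speeds the removal of the C-terminal propeptide, at -1.58.

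Receptors and degrading enzymes ran the same way. Of the collagen receptors, 3 of 6 were lower by 1.5-fold below the lesion and 0 of 4 above. DDR2, a kinase that binds fibrillar collagen, was at -0.89 on the log2 scale below, the integrin chain ITGA10 at -0.65 and the uptake receptor MRC2 at -0.99. Of the degrading genes, 4 of 6 were lower below and 0 of 5 above. CTSK, a protease that cuts collagen in lysosomes and bone, was at an FPKM of 18.9 and 5.51 below, with a log2 difference of -1.69. MMP13, a collagenase, was at -1.51 and MMP2, which cuts denatured collagen, at -0.94, and MRC2 counts in this list too. LOX, ITGA10 and MMP13 have a row below through synj1+/+ alone, and without such genes the counts are 2 of 8 for trimming and crosslinking, 2 of 5 for receptors and 3 of 5 for degradation. No gene of these lists was higher past the limit at either site, and the median log2 differences below ran from -0.96 for degradation to -0.19 for trimming and crosslinking.

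Most fibroblast markers were lower in synj1+/- below the lesion, as most chains were. Of 7 fibroblast markers, all had a row below the lesion and 6 were lower by 1.5-fold or more in synj1+/-, and of 5 with a row above none was. The summed FPKM of the 6 with a recovered FPKM was 116.9 in synj1+/+ and 18.6 in synj1+/- below, and that of 4 above was 13.1 and 11.7. DCN, a proteoglycan of fibrillar matrix, was at an FPKM of 68.8 and 9.39 below, and LUM, a related one, at 21.7 and 1.94. PDGFRA was the exception, with a log2 difference of -0.31 below. Of 7 meningeal fibroblast markers, 5 of 6 with a row below were lower, with a summed FPKM of 17.4 and 5.58, while only FOXC1 had a row above, at an FPKM of 1.22 and 1.19. DPT, MFAP5, PI16, FOXC2, SLC47A1 and SLC6A13 are counted here but are listed below through synj1+/+ alone. Without genes of that kind, 3 of 4 fibroblast and 2 of 2 meningeal fibroblast markers were lower. The part of these cells in the collagen differences was not tested.

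Markers of the other cell types that the segments could hold were read the same way. None of 7 pericyte and smooth muscle markers was past 1.5-fold at either site, with a summed FPKM of 83.3 and 71.4 below. Of 8 endothelial markers CDH5 alone was lower below, at -0.61, and the sum was 129.3 and 116.9. Of 4 Schwann cell markers with a row below, EGR2 was lower, at -1.25, and the sum was 14.7 and 9.3. For microglia and macrophages AIF1 and CD68 were lower of 5 listed below, at -0.93 and -0.79, with a sum of 185.9 and 145.8. None of 6 astrocyte, 6 neuron and 2 oligodendrocyte markers listed below was past the limit in either direction, and the 6 neuron markers were all higher in synj1+/-. Of the cartilage and bone markers only ACAN had a row at either site, and of the skeletal muscle markers 2 of 6 had a row below and none above. Above the lesion the only marker past 1.5-fold in any of these lists was the Schwann cell gene NCMAP, higher at 0.88.

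**Figure D5:**
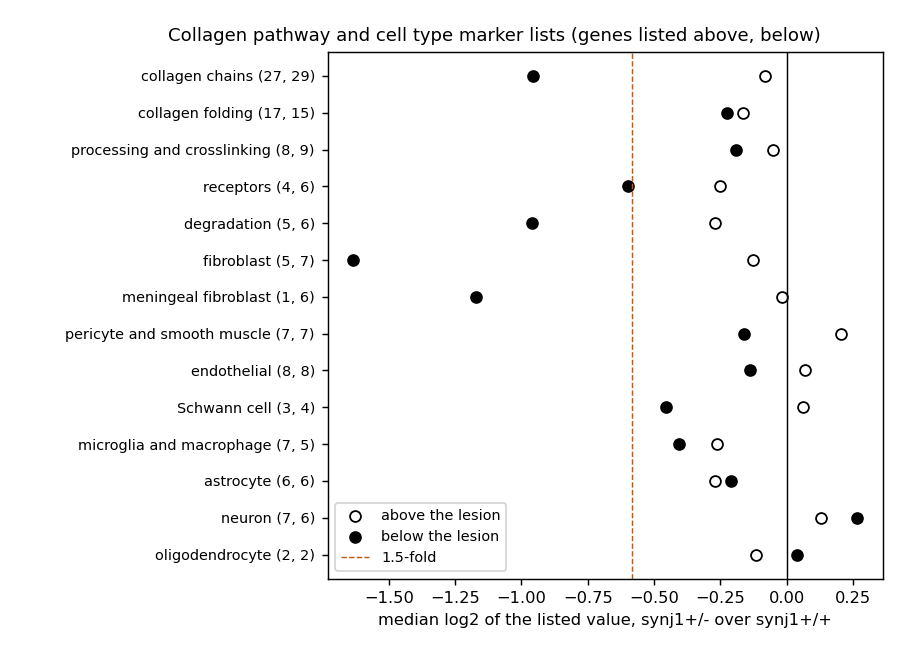
Median log2 difference of the listed value, synj1+/- over synj1+/+, for the collagen chains, 4 lists of collagen pathway genes and 9 lists of cell type markers, open above and filled below the lesion, with the numbers of genes listed above and below in brackets and a dashed line at 1.5-fold. Below the lesion the fibroblast, meningeal fibroblast and degradation lists and the collagen chains lie at or to the left of -0.96, and the neuron list lies to the right of 0.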

How the data were processed

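Segments of spinal cord just above and below the contusion were profiled by RNA-seq, with 3 libraries per group. According to the paper's methods, reads were reduced at random to a common number within a site and normalized by the upper quartile, and the submitters' processing notes name STAR 2.5.4b, Cuffdiff 1.3.0 and GRCm38.p6. The libraries of a site thus entered with equal numbers of reads, while the reads behind a gene's value cannot be read from the table, which holds 0 columns of single samples.

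The authors' deposited table lists 1 value for each genotype and site, in a unit that was not stated and that was named other than FPKM here. The lowest value is 1, and the last digits fit FPKM multiplied by the number of RefSeq transcripts of the gene, plus 1. FPKM was therefore recovered as the value less 1, divided by that number. The RefSeq number was used for 24 chains, and the nearest one that fits for COL12A1 and COL6A3. No number fits for COL8A1, COL25A1 and COL27A1 or for SYNJ1, so listed values are given. A smaller number also fits for COL5A3, COL6A2, COL9A3, COL11A2, COL14A1, COL16A1 and COL24A1, whose levels beside other genes depend on it. A ratio of FPKM within a gene does not depend on the number.

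The authors' columns of fold change, log2 fold change, p-value, q-value and significance, and their shorter list, were not used. Their p-values and q-values rest on the spread between libraries, which no column used here holds, so no test was run. Pathway and marker lists are given by counts, and sums leave out genes without a recovered FPKM. Not every gene of the marker lists is reported here. Every chain is accounted for, and those that reach an FPKM of 1 are given in each group. The chains and lists were chosen with earlier results of these data known. Alternatives were other fold limits, added values, a filter on FPKM, centring and scaling, and collagen IV alone as basement membrane. Python 3.11.15, numpy 2.4.6, pandas 2.3.3 and matplotlib 3.10.9 were used. The recovery of FPKM was run on values simulated as FPKM times a transcript number, plus 1. Such a run cannot show that the deposited values have that form.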

Additional observations from a re-analysis of the deposited data

How the results depend on the processing

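The count of chains lower by the limit in synj1+/- was 18 below and 1 above the lesion, and 15 chains differed between the sites. At the lower of the alternative fold limits, 6 of 27 chains were lower above, beside 7.45% of all genes. At that limit 2 chains were higher above. With FPKM without the added 1, 2 of 27 were lower above, beside 2.63% of all genes. With FPKM plus 10, which shrinks low genes, chains without a recovered FPKM were left out. In that setting 0 of 25 chains were lower above, 6 of 26 were lower below, and 5 of 25 differed between the sites. The shares of all genes were 0.128%, 0.68% and 0.456%, in the same order. With collagen IV alone, 3 of 3 basement membrane chains were lower below, in place of 5 of 5. The other alternatives left each count within 1.5 times, including centring and scaling by the upper quartile, and FPKM plus 1, an alternative chosen after seeing the data. COL24A1 above the lesion, at 0.76, was within 1.5-fold with FPKM plus 1, at 0.54, and so was it at both sites with FPKM plus 10. The gap between the sites of COL3A1, at -1.54, was -0.77 with FPKM without the added 1. No difference of a single chain past 1.5-fold changed its sign under any of them. No paired analysis was possible because the table has no columns of single samples and the labels tie no library to a mouse, although the sites would share mice. For the same reason no result could be computed with a library left out, and whether 1 library sets the level in synj1+/+ below was not tested. The absence of per-library values limits every comparison here.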

Other observations

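The unit of the deposited values bears on any comparison of levels between genes. Of 7339 genes with 2 to 10 RefSeq transcripts that are listed at both sites, the values less 1 were whole multiples of that number, to 6 significant digits, in 83.1%, beside 5.83% for the number plus 1. For synj1+/+ above the lesion, the median listed value was 11.5 for genes with 1 RefSeq transcript and 434.2 for genes with 21 or more. The share of genes that fit their RefSeq number was lower for more transcripts, 41.6% for 11 to 20 and 14.6% for 21 or more. COL11A2, with 16 transcripts, and COL1A2, with 1, had listed values of 215.3 and 9.32 in that group. Their FPKM by these numbers was 13.4 and 8.32, but 4 also fits for COL11A2.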
